A study of Mus musculus with 6 samples.

Results

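The pyruvate dehydrogenase complex and the enzymes that switch it on and off were followed in islets of wild-type (WT) and *Akita* mice through 10 genes, all found by symbol among the 40914 genes with counts. They comprised the 4 kinases *Pdk1*, *Pdk2*, *Pdk3* and *Pdk4*, the phosphatase side with *Pdp1*, *Pdp2* and *Pdpr*, and the core subunits *Pdha1*, *Pdhb* and *Dlat*. *Akita* mice are heterozygous for *Ins2* with the C96Y substitution, a cysteine change that makes proinsulin misfold in the endoplasmic reticulum of β-cells, and the allele was on a C57BL/6J background. WT mice were matched in age, P19-21 in both groups. The paper used *Akita* males throughout, and the sex of the WT mice was not found in it. Each of the 3 WT libraries (WT1 to WT3) and 3 *Akita* libraries (AK4 to AK6) held the pooled whole islets of 3 mice, hand-picked after collagenase P and kept overnight in medium with 11.1 mmol/l glucose. The counts per gene do not show the *Ins2* base change, so that the genotype was taken from the labels.

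Pyruvate dehydrogenase sits at the entry of the tricarboxylic acid cycle and turns pyruvate, the end product of glycolysis, into acetyl-CoA in the mitochondrial matrix. The kinases phosphorylate its E1α subunit and switch the complex off, and the phosphatases remove the phosphate and switch it on again. In β-cells, oxidation of glucose carbon in mitochondria is needed for insulin secretion, and little pyruvate is turned to lactate. *Pdk1* is a textbook target of hypoxia-inducible factor, and *Pdk4* of the fasting-linked regulators PPAR and FOXO. RNA levels are given here, and phosphorylation and enzyme activity were not measured.

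The kinase promoters are shown because the member called between the genotypes is a kinase. The windows run from 250 bases before to 50 bases after the start of the gene in RefSeq, on GRCm38.p6, and are written 5′ to 3′ on the strand of the gene. Capitals mark ACGTG and GCGTG, the core letters of the hypoxia response element, and their reverse complements CACGT and CACGC. For *Pdk1* and *Pdk2*, which have 2 entries each, the entry nearer to the gene start in the deposited table is shown.
Pdk1 promoter (chr2:71872974-71873273, plus strand): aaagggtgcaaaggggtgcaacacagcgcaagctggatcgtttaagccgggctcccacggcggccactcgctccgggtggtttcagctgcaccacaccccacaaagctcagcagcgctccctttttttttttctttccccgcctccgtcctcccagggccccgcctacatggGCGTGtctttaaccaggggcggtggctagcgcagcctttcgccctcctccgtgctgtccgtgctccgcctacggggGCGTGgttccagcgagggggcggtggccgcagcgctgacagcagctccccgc
Pdk2 promoter (chr11:95041322-95041621, minus strand): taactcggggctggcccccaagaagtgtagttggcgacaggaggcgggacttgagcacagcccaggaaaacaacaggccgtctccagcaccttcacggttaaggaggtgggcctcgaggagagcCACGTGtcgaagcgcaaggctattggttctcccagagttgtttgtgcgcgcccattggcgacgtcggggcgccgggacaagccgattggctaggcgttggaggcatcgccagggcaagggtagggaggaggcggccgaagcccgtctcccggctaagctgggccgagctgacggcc
Pdk3 promoter (chrX:93832101-93832400, minus strand): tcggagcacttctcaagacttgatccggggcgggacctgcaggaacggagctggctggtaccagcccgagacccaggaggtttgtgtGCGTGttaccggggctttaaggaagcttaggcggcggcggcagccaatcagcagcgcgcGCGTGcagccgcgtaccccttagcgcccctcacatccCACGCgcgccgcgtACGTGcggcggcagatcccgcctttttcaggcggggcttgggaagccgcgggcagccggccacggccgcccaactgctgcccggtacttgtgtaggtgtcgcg
Pdk4 promoter (chr6:5496229-5496528, minus strand): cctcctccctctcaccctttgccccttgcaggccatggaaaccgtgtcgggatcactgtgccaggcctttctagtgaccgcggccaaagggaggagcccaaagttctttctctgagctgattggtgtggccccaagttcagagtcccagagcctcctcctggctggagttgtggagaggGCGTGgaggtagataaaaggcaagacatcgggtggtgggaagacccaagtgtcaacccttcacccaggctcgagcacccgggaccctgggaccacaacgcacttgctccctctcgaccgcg

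The *Pdk1* window held GCGTG at 2 places, starting at positions -78 and -2 from the gene start, where position 1 is the first base transcribed. The *Pdk2* window held a single palindrome, CACGTG, which contains ACGTG on both strands and is also the E-box read by many other factors. *Pdk3* held the letters at 4 places and *Pdk4* at 1. Of the 11 entries that matched 9 of the 10 genes, 8 held ACGTG or GCGTG, against 43.8% of the 32851 windows of all genes, and 3 of the 11 (*Pdk2*, *Pdp2* and *Pdpr*) held CACGTG, against 7.15%. The FOXO letters TGTTTAC (3.65% of all windows), the nuclear receptor motif AGGTCA (16.3%) and the C/EBP-ATF letters TTGCATCA (0.895%), searched on both strands, were in 0 of the 11. The letters CCAAT (37.4% of all windows) were in entries of *Pdhb*, *Pdk2*, *Pdk3*, *Pdk4* and *Pdp2*. The windows of all genes were not matched to these entries in base composition. A match is a description of the letters and not of a bound site.

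All 10 genes passed the filter on low counts, with 223 to 3033 counts per library, so that counting error alone was between 6.70% and 1.82% of a value. Library totals ran from 22069554 to 27043169 counts. In limma-voom with adjustment over all 15407 genes tested, 249 genes (1.62%) passed an adjusted p under 0.05, 117 higher (0.759%) and 132 lower in *Akita*. Of the 10 members, 1 was called higher, 0 were called lower and 9 were not called. At an unadjusted p under 0.05 there were 2 of 10, against 18.7% of all genes. The median log2 fold change of the 10 was 0.04, against -0.0011 over all genes tested, and by role it was 0.69 for the kinases, 0.08 for the phosphatase side and -0.03 for the core subunits. The call for *Pdk1* needs a limit stated at the outset: it was lost when WT1, WT2, WT3 or AK6 was left out.

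**Figure D1:**
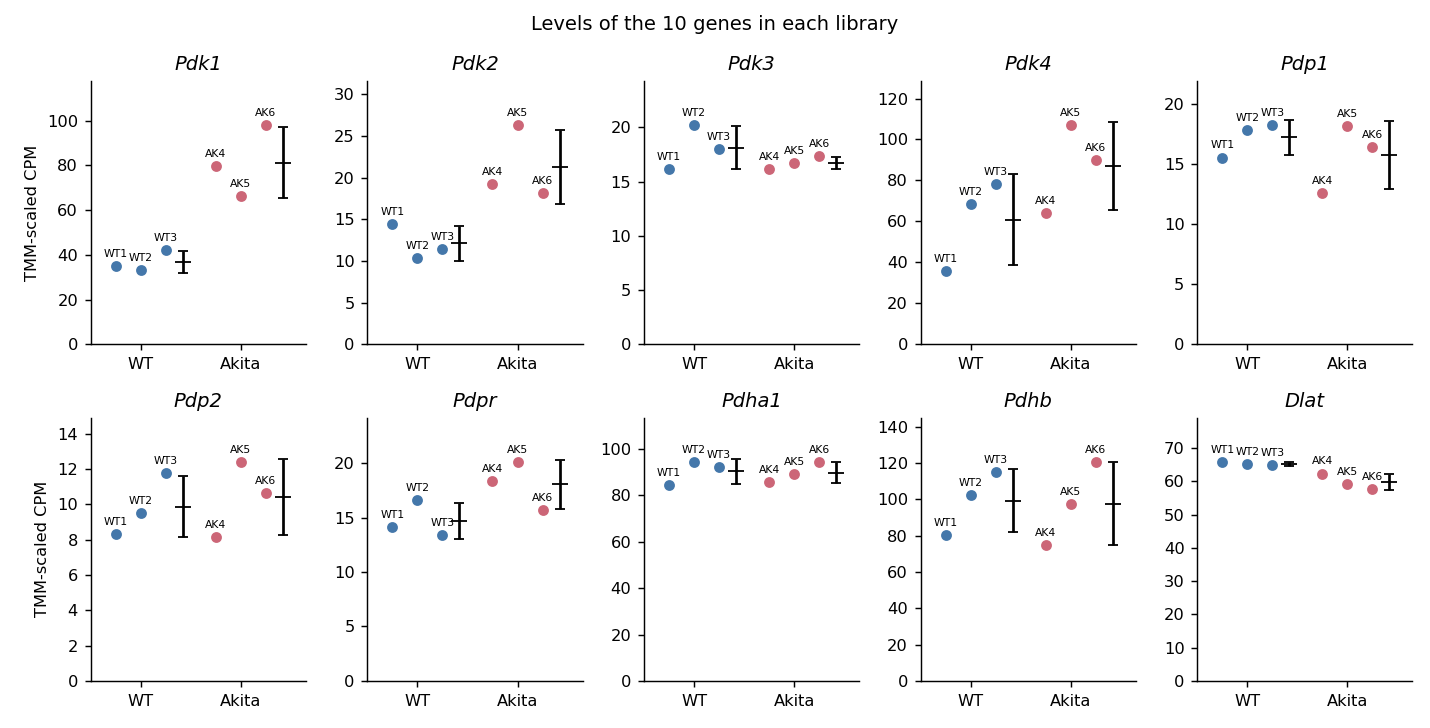
TMM-scaled counts per 1000000 (CPM, vertical axis from 0) of the 10 genes in each WT (blue) and *Akita* (red) library, with the mean and SD of the 3 libraries in black. *Pdk1* and *Pdk2* lay higher in all 3 *Akita* libraries than in all 3 WT libraries, *Dlat* lay slightly lower in all 3, and the other 7 genes overlapped.

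*Pdk1* (chr2:71873224-71903858, plus strand), the kinase that can phosphorylate all the regulatory serines of E1α, was the member called higher. WT1, WT2 and WT3 held 939, 803 and 873 counts and AK4, AK5 and AK6 held 2202, 1806 and 2466. In counts per 1000000 (CPM), with library sizes adjusted by TMM factors that align the bulk of the genes between libraries, these were 35.1, 33.1 and 42.2 in WT and 79.6, 66.2 and 98.1 in *Akita*. The lowest *Akita* library was above the highest WT library, and AK5 was the lowest of the *Akita* libraries. The means were 36.8 ± 4.78 CPM in WT and 81.3 ± 16.1 in *Akita* (SD, n = 3 each). *Pdk1* rose by 1.14 on the log2 scale (SE 0.17, adjusted p = 0.033 by limma-voom with Benjamini–Hochberg adjustment), which is 2.20-fold with a 95% interval from 1.68 to 2.88. By unadjusted p it ranked 109 among the 15407 genes. From the counts of whole islets alone, a change in the number of cells of a type and a change in RNA per cell cannot be told apart. The paper counted islet cells at this age and reported a similar β/α cell ratio and similar β-cell numbers per islet area in both genotypes. It held that islet composition did not affect the RNA comparison.

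The rise of *Pdk1* kept its direction in every setting run, between 0.99 and 1.28 on the log2 scale. It was called in all 9 settings that changed the scaling, the filter, the model or the covariate (adjusted p from 0.021 to 0.034 by limma) and without AK4 (0.037) or AK5 (0.042). Without WT1, WT2, WT3 and AK6 the adjusted p was 0.091, 0.153, 0.104 and 0.104, in fits where the count of all genes called fell to 64, 7, 1 and 0 (in the last, 2440 genes had an unadjusted p under 0.05). From these same libraries the study itself reported *Pdk1*, *Pdk2* and *Pdk4* as upregulated, so that their direction is not independent evidence. It used DESeq2 with a threshold of p under 0.05, which *Pdk4* missed in its list. The calls given here come from another test and an adjusted threshold, and the 2 sets of calls are not alike in measure.

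*Pdk2* (chr11:95026258-95041354, minus strand), the most widely expressed of the kinases, was at lower counts. WT1, WT2 and WT3 held 386, 252 and 237 counts and AK4, AK5 and AK6 held 531, 719 and 457. The CPM were 14.4, 10.4 and 11.5 in WT and 19.2, 26.3 and 18.2 in *Akita*, so that the groups did not overlap and AK5 stood highest. That the 3 *Akita* libraries lay above the 3 WT libraries was true of 2 members and of 13.2% of all genes tested. The log2 fold change was 0.80 (SE 0.20, 95% interval 0.33 to 1.26) with an adjusted p of 0.099 by limma-voom, which did not pass. In the 9 settings that changed the processing and the 6 that left out a library the adjusted p was between 0.058 and 0.320, and the direction did not turn.

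*Pdk4* (chr6:5483351-5496309, minus strand), the kinase induced in fasting in muscle and heart, held 961, 1664 and 1613 counts in WT1, WT2 and WT3 and 1780, 2924 and 2262 in AK4, AK5 and AK6. The CPM were 35.9, 68.7 and 78.0 in WT and 64.3, 107 and 90.0 in *Akita*. The groups overlapped, since AK4 lay below WT2 and WT3, and WT1 was the lowest of all. The log2 fold change was 0.58 (SE 0.31, 95% interval -0.16 to 1.31, adjusted p = 0.378 by limma-voom). Without WT1 it was the lowest of the settings run, 0.22, and in no setting did it pass.

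The level of *Pdk4* was set beside that of *Gcg* across the 6 libraries, with no statistic for their likeness. *Gcg*, which encodes the α-cell hormone glucagon, gave 26429, 37397 and 40965 CPM in the WT libraries, in the same order, and 38215, 59488 and 55023 CPM in the *Akita* libraries. *Pdk4* gave 1.36, 1.84 and 1.90 counts per 1000 counts of *Gcg* in WT and 1.68, 1.80 and 1.64 in *Akita*. The mean was 1.70 ± 0.30 in WT and 1.71 ± 0.085 in *Akita* (SD, n = 3 each). The groups overlapped in this ratio, as they already did in the CPM of *Pdk4*. For *Pdk1* the ratio to *Gcg* was 1.08 ± 0.23 in WT and 1.66 ± 0.50 in *Akita*, with AK5 at 1.11 and WT1 at 1.33. For *Pdk2* it was 0.546, 0.278 and 0.280 in WT and 0.502, 0.443 and 0.331 in *Akita*, so that the groups, which did not overlap in CPM, overlapped in this ratio. These ratios were formed after the values had been seen, with *Gcg* as the only denominator among the α-cell markers. Log2 fold changes of the 8 α-cell markers ran from 0.12 (*Slc7a2*) to 0.54 (*Gcg*), so that division by *Gcg* lowers a rise the most. Ratios to the others were not formed. The overlap of *Pdk1* and *Pdk2* in these ratios holds for *Gcg* alone, and a marker that rose less can leave the groups apart. All 8 α-cell markers had log2 fold changes above 0, 0 of 8 were called (3 at an unadjusted p under 0.05), and their summed level was 27195 to 42277 CPM in WT and 39151 to 61126 CPM in *Akita*. The part of the α-cell RNA in the level of *Pdk4* was not tested.

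**Figure D2:**
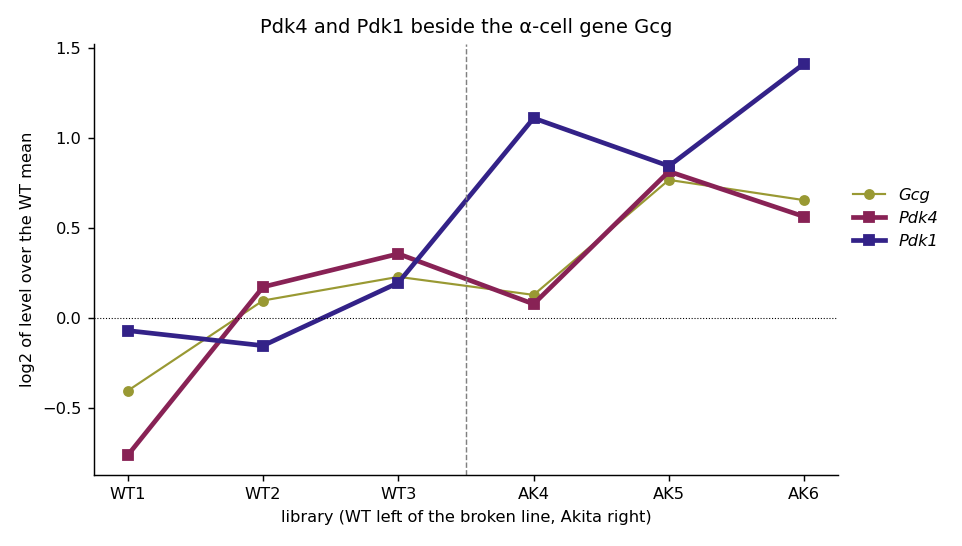
Level of *Pdk4*, *Pdk1* and the α-cell gene *Gcg* in each library, as log2 of CPM over the mean of the 3 WT libraries (vertical axis), with lines that only join the values of a gene. *Pdk4* lay near *Gcg* from WT2 to AK6 and below it in WT1, while *Pdk1* stood well above it in AK4 and AK6.

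*Pdk3* (chrX:93764607-93832201, minus strand), whose product resists inhibition by pyruvate, differed little. WT1, WT2 and WT3 were at 16.2, 20.2 and 18.0 CPM and AK4, AK5 and AK6 at 16.2, 16.7 and 17.3 CPM. All 3 *Akita* values lay within the WT range or at its lower edge. The log2 fold change was -0.11 (SE 0.11, adjusted p = 0.655 by limma-voom), and the 95% interval of the fold was 0.772 to 1.11. The counts of *Pdk1* per count of *Pdk3*, a ratio within a library that needs no scaling, were 2.17, 1.64 and 2.35 in WT and 4.92, 3.96 and 5.67 in *Akita*.

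**Figure D3:**
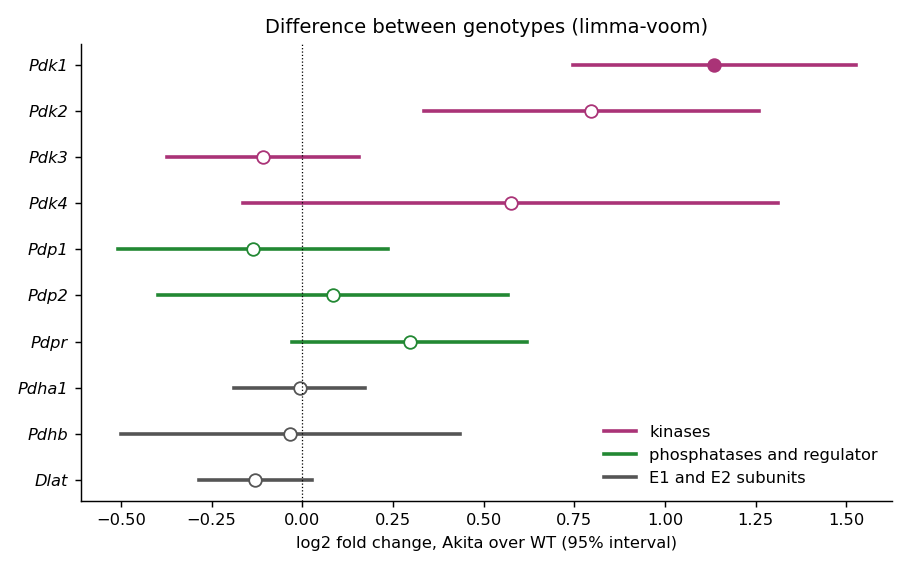
Log2 fold change of *Akita* over WT (horizontal axis) with its 95% interval for the 10 genes, coloured by role. The filled point, *Pdk1*, passed the adjusted p threshold. The open points did not, and of these the interval of *Pdk2* alone lay above 0.

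The kinase mix was compared per length of the longest coding transcript, since *Pdk1* RNA (5185 bases) is longer than that of *Pdk2* (2246) or *Pdk3* (2115). On this scale *Pdk4* was the most abundant kinase in WT, at 17.5 CPM per kb, followed by *Pdk3* at 8.58, *Pdk1* at 7.10 and *Pdk2* at 5.39. In *Akita* the order was *Pdk4* at 25.0 CPM per kb, *Pdk1* at 15.7, *Pdk2* at 9.46 and *Pdk3* at 7.91. In WT the ranges of *Pdk3* and *Pdk1* and of *Pdk1* and *Pdk2* overlapped, and in *Akita* those of *Pdk4* and *Pdk1* and of *Pdk2* and *Pdk3*. By the means *Pdk3* thus went from the second place to the last with nearly the same level of its own. In AK6 it was not last, with a share of 13.4% against 13.3% for *Pdk2*. Its share of kinase counts per length was 24.6%, 23.7% and 19.3% in WT1, WT2 and WT3 and 15.3%, 12.5% and 13.4% in AK4, AK5 and AK6, with no overlap. The share of *Pdk1* was 21.7%, 15.9% and 18.4% in WT and 30.7%, 20.2% and 31.0% in *Akita*, where AK5 fell within the WT range. *Pdk4* held 44.2 ± 9.70% and 42.6 ± 5.90% of the kinase counts per length, and *Pdk2* 14.6 ± 5.25% and 16.3 ± 2.74% (SD, n = 3 each). These shares and the ratios below are descriptions with no test.

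On the phosphatase side, *Pdp1* (chr4:11958184-11966452, minus strand), the calcium-stimulated catalytic subunit, stood at 15.5, 17.8 and 18.2 CPM in WT and 12.6, 18.2 and 16.4 CPM in *Akita*. AK4 was the lowest and the other *Akita* libraries lay in the WT range. The log2 fold change was -0.14 (SE 0.16, adjusted p = 0.697 by limma-voom). *Pdp2* (chr8:104591468-104596836, plus strand), the calcium-insensitive catalytic subunit, was the lowest of the 10 genes, at 8.34, 9.49 and 11.8 CPM in WT and 8.13, 12.4 and 10.7 CPM in *Akita*. Its log2 fold change was 0.08 (SE 0.20, adjusted p = 0.867 by limma-voom). *Pdpr* (chr8:111094630-111137074, plus strand), the regulatory subunit that holds back *Pdp1*'s product, was at 14.1, 16.6 and 13.4 CPM in WT and 18.4, 20.1 and 15.7 CPM in *Akita*. Only AK6 lay within the WT range, and the log2 fold change of 0.30 (SE 0.14, adjusted p = 0.306 by limma-voom) did not pass. For *Pdp1* and *Pdp2* the 95% intervals of the fold were 0.703 to 1.18 and 0.759 to 1.48.

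Summed per length, the 4 kinases stood at 6.04, 6.82 and 6.89 times the level of *Pdp1* and *Pdp2* together in WT1, WT2 and WT3. In AK4, AK5 and AK6 the ratio was 11.3, 9.70 and 10.6. The lowest *Akita* library was thus above the highest WT library, with means of 6.58 ± 0.47 and 10.5 ± 0.79 (SD, n = 3 each). This separation is not independent of those of *Pdk1* and *Pdk2* in CPM, which enter the sum. Against *Pdha1*, the kinases were at 1.21 ± 0.16 in WT and 1.84 ± 0.18 in *Akita*, and the catalytic phosphatases at 0.184 ± 0.013 and 0.176 ± 0.031. The kinase sum includes *Pdk1*, the called gene, and *Pdk4*, whose groups overlapped in CPM.

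**Figure D4:**
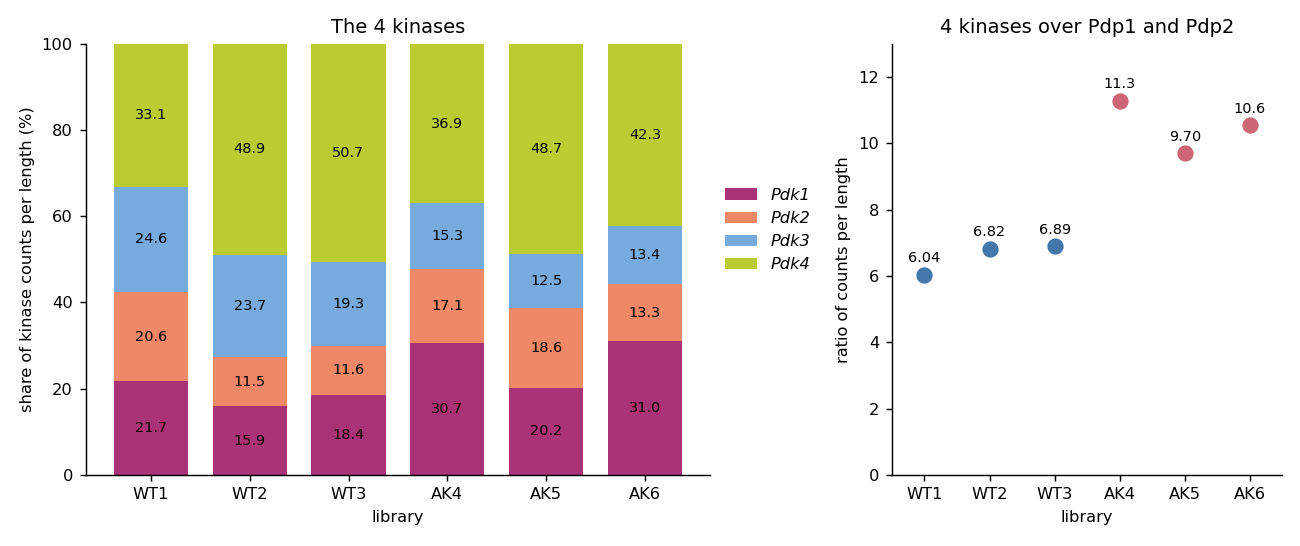
Left, share of each kinase in the kinase counts per length of transcript (%, stacked to 100) in each library. Right, ratio of the 4 kinases to *Pdp1* and *Pdp2*, in counts per length, for WT (blue, 6.04 to 6.89) and *Akita* (red, 9.70 to 11.3).

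Per length of the longest transcript the E1 subunits *Pdhb* and *Pdha1* were the most abundant members, at 65.6 and 31.7 CPM per kb in WT and 64.5 and 31.5 in *Akita*. With the exon union as length they were at 25.7 and 24.2 in WT and 25.3 and 24.1 in *Akita*, where *Pdk4* was at 24.8. *Pdha1* (chrX:160122209-160138413, minus strand), which encodes E1α, the subunit that the kinases phosphorylate, was at 84.3, 94.6 and 92.1 CPM in WT and 85.9, 89.1 and 94.5 CPM in *Akita*. The log2 fold change was -0.01 (SE 0.076, adjusted p = 0.974 by limma-voom), and the 95% interval of the fold was 0.878 to 1.13. Of the exon bases of *Pdha1*, 603 of 3734 (16.1%) overlap exons of *Map3k15* on the other strand, and reads there cannot be told apart without strand. *Map3k15* held 5454 to 9246 counts per library, highest in AK5, and *Pdha1* 1904 to 2431. The effect of the overlap on *Pdha1* and on the ratios to it was not tested. *Pdhb* (chr14:8165991-8172992, minus strand), which encodes E1β, varied more between libraries, at 80.3, 102 and 115 CPM in WT and 75.0, 97.2 and 121 CPM in *Akita*. Its spread within each group was wider than the difference between them (log2 fold change -0.03, SE 0.20, adjusted p = 0.951 by limma-voom).

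*Dlat* (chr9:50634633-50659780, minus strand), the E2 acetyltransferase that forms the core of the complex and carries the kinases, was at 66.0, 65.2 and 64.8 CPM in WT and 62.4, 59.1 and 57.7 CPM in *Akita*. The groups did not overlap, as for 25.3% of all genes tested in either direction. The difference was small, with a log2 fold change of -0.13 (SE 0.066, 95% interval of the fold 0.820 to 1.02), and the adjusted p of 0.351 by limma-voom did not pass. None of the 3 core genes was therefore separated from no change, and their intervals bound a fold at 0.707 or more and 1.35 or less.

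Of the other parts of the complex and the enzymes that attach its lipoyl arm, 0 of 7 tested genes were called by limma-voom (also 0 at an unadjusted p under 0.05) and the median log2 fold change was 0.07. *Dld*, the E3 dehydrogenase shared with the sister complexes, was at 152 ± 11.6 CPM in WT and 133 ± 11.6 in *Akita* (SD, n = 3 each), with a log2 fold change of -0.20. *Pdhx*, the E3-binding protein, was at 16.3 ± 0.72 and 15.9 ± 0.98 CPM. *Lias*, the lipoyl synthase, and *Nfu1*, which supplies its iron-sulfur clusters, had log2 fold changes of 0.07 and -0.01. *Pdha2*, the testis form of E1α, was at 0 counts in all 6 libraries.

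Among 12 genes of pyruvate supply and its other uses, 1 was called higher and 1 lower, and the median log2 fold change was -0.01. *Pcx*, pyruvate carboxylase, which sends pyruvate to oxaloacetate, was at 186, 178 and 175 CPM in WT and 138, 119 and 126 CPM in *Akita*. It fell by 0.49 on the log2 scale (SE 0.077, adjusted p = 0.037 by limma-voom), with no overlap between the groups. *Gpt2*, the mitochondrial alanine aminotransferase, which interconverts pyruvate and alanine, was at 14.2, 14.8 and 15.6 CPM in WT and 26.0, 22.5 and 25.6 CPM in *Akita*. It rose by 0.73 on the log2 scale (SE 0.10, adjusted p = 0.032 by limma-voom). Both calls were lost when any library other than AK4 was left out, with adjusted p up to 0.155 and 0.153, and that of *Pcx* also with library totals as the only scaling (0.075). *Pkm*, pyruvate kinase, had a log2 fold change of -0.39 (adjusted p = 0.093 by limma-voom), and *Me1*, *Mpc2* and *Me2* of 0.25, -0.08 and -0.14.

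Of the sister complexes that share the E1, E2 and E3 plan, 0 of 8 genes were called by limma-voom (5 at an unadjusted p under 0.05) and the median log2 fold change was -0.23. *Ogdhl*, a form of the 2-oxoglutarate dehydrogenase E1, was at 229, 299 and 214 CPM in WT and 159, 95.6 and 128 CPM in *Akita*. Its log2 fold change was -0.97 (SE 0.20, adjusted p = 0.071 by limma-voom), and it passed with a quality weight for each library (0.041) and without AK4 (0.031). *Ogdh* and *Dlst* had log2 fold changes of -0.27 and -0.20. *Bckdk*, the kinase of the branched-chain 2-oxoacid dehydrogenase and a relative of the 4 kinases above, was at 87.4 ± 9.28 and 97.7 ± 2.42 CPM with a log2 fold change of 0.17. For thiamine pyrophosphate, the cofactor of E1, 0 of 4 tested genes were called by limma-voom (1 at an unadjusted p under 0.05) and the median was 0.15. *Thtpa*, the thiamine triphosphatase, and *Slc19a2*, a thiamine transporter of the cell membrane, had log2 fold changes of 0.21 and 0.23.

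Lists linked to the usual regulators of *Pdk1* and *Pdk4* were counted in the same fit, and the activity of these regulators was not tested. Of 12 targets of hypoxia-inducible factor, 0 were called by limma-voom (1 at an unadjusted p under 0.05), 3 lay above 0 and 9 below, and the median log2 fold change was -0.13. *Vegfa*, *Ndrg1*, *P4ha1* and *Egln1*, the most abundant, had log2 fold changes of -0.04, -0.07, -0.01 and 0.14. *Slc2a1*, a glucose transporter named here after its values were seen, lay lower in all 3 *Akita* libraries, with a log2 fold change of -0.65 (adjusted p = 0.080 by limma-voom). With a quality weight for each library, or without AK4, 1 of the 12 was called. Of 13 factors and targets of PPAR, FOXO and ERR, 0 were called by limma-voom (3 at an unadjusted p under 0.05) and the median was 0.05. *Foxo3*, *Foxo1*, *Cpt1a* and *Acadl* had log2 fold changes of 0.23, -0.03, 0.42 and -0.05, and the adjusted p of *Cpt1a*, the carnitine palmitoyltransferase of fatty acid oxidation, was 0.078 by limma-voom. In the fit with library totals as the only scaling, which moved the median of all genes to 0.12, 2 of the 13 were called. By limma-trend 0 genes of these 5 lists other than that of pyruvate supply were called.

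The profiles most like that of *Pdk1* over the 6 libraries were sought among 10840 other genes of 5 CPM or more, by the root mean square difference of log2 CPM after each gene was centred on its own mean. The nearest were *Creld2* (0.098), *Tcf7l1* (0.12) and *Dct* (0.15). *Creld2*, which encodes an endoplasmic reticulum chaperone-like protein induced in stress of that compartment, was at 159, 148 and 191 CPM in WT and 325, 267 and 369 CPM in *Akita*, so that AK6 was highest and AK5 lowest of the *Akita* libraries, as for *Pdk1*. *Tcf7l1*, a transcription factor of the Wnt pathway, was at 5.24, 4.33 and 6.09 CPM in WT and 10.7, 9.74 and 11.7 CPM in *Akita*. *Dct*, dopachrome tautomerase, was at 14.4, 11.4 and 12.7 CPM in WT and 30.4, 22.8 and 30.4 CPM in *Akita*. The likeness includes the difference between the groups and says nothing of shared function or control. By the same measure *Pdk2* ranked 349, *Pdk4* 1812 and *Pdk3* 7012.

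Islet markers were present in every library. Of 12 β-cell markers 5 were called lower by limma-voom (*Ins2*, *Mafa*, *Nkx6-1*, *G6pc2* and *Pcsk1*) and 0 higher, 11 had log2 fold changes below 0 and 10 an unadjusted p under 0.05. With a quality weight for each library 8 of these markers were called, without WT1 1 was, and without WT2, WT3, AK5 or AK6 0 were. Their summed levels were 224814 to 248745 CPM in WT and 133838 to 158474 CPM in *Akita*. The 4 PP- and ε-cell markers, all with log2 fold changes above 0 (median 0.83), had 0 calls by limma-voom, 1 by limma-trend and 3 at an unadjusted p under 0.05. They were at 4465 to 5371 and 5946 to 8749 CPM in sum, and the 5 δ-cell markers at 3487 to 3910 and 3755 to 4883. The 12 acinar markers summed to 232 to 6253 CPM in WT and 185 to 6809 in *Akita*, lowest in WT2 and AK5. With the acinar score as a covariate the log2 fold change of *Pdk1* was 1.17 (adjusted p = 0.023 by limma-voom). Of the 6 ductal, 6 endothelial, 7 macrophage and 7 mesenchyme markers 0 were called by limma-voom or limma-trend, and 1, 0, 1 and 0 had an unadjusted p under 0.05. The 5 red blood cell markers, at 5.08 to 8.12 CPM in sum in WT and 9.72 to 24.6 in *Akita*, and the nuclear RNAs *Malat1* and *Neat1*, at 540 to 657 and 384 to 571, also held 0 calls by either tool, with 4 and 0 genes at an unadjusted p under 0.05. The part of these shifts in the levels of the kinases was not tested.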

How the data were processed

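RNA of whole islets was sequenced as poly(A) libraries from 120 ng of total RNA with single reads of 50 bases. For reads trimmed with cutadapt 1.12, the authors used STAR 2.5.2b for alignment to GRCm38 and HTSeq 0.7.2 for counts per gene. Neither the gene annotation used for counting nor its strand option was found in these sources. The single deposited table lists 47729 genes, with raw counts per library from the authors, beside their normalized counts and their own fold changes and p-values from DESeq2. Of these, the raw counts alone were used here. A mark replaced the counts in 6815 genes, which were left out. The genes kept held whole counts. Because of the marks in the columns, a rule set beforehand put limma-voom in place of a count test, which the counts kept would have allowed (edgeR and DESeq2 were not run here). Columns could be assigned to a genotype only, because the numbers of the *Akita* columns (4 to 6) are not those of the samples. Labels say that each library is a separate pool of mice, and p-values measure the spread between pools.

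A gene was tested if its CPM in 3 or more libraries was that of 10 counts at the median library size, and if it had 15 or more counts in all. TMM factors (trims of 30% of log ratios and 5% of levels) were computed with R 4.3.3, and limma 3.58.1 was run on log2 CPM with a pseudocount of 0.5 and no covariate or block, with Benjamini–Hochberg adjustment over all tested genes. Transcript lengths and exon overlaps came from GENCODE vM21 on the same build, and promoter windows from RefSeq. Tables were handled with Python 3.11.15, pandas 2.3.3 and SciPy 1.17.1. Named genes were all 10 members, of each context list the called genes and up to 4 others of the highest CPM, and the 3 genes most like *Pdk1*. The ratios to *Gcg* were chosen after values were seen, and some genes within this rule are not reported here. The members and lists were chosen with earlier results of these data known. Alternatives were other scalings, filters, models and thresholds, an acinar covariate, and each library left out.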

Additional observations from a re-analysis of the deposited data

How the results depend on the processing

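The number of genes called in *Akita* against WT was 249 with TMM, 569 with library totals as the only scaling, 521 with a quality weight for each library and 744 at an adjusted p under 0.1, and between 0 and 584 when a library was left out. The number of members called was 1, 2 at an adjusted p under 0.1 (*Pdk1* and *Pdk2*), and between 0 and 1 when a library was left out. The cause of these shifts was not tested, other than that fits without a library have fewer samples. All other settings gave 1 member called. *Pdha1*, *Pdhb*, *Pdk3*, *Pdp1* and *Pdp2*, all close to 0, changed sign in 6, 5, 1, 1 and 2 of the 15 settings without being called. With the exon union as length, the ratio of kinases to *Pdp1* and *Pdp2* was 5.90 in WT and 9.18 in *Akita*, and *Pdk1* held 14.7% of the WT kinase counts per length. No paired analysis was possible because the *Akita* columns do not carry the replicate numbers of the labels. Counting error from depth was at most 6.70% of a member's value in a library.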
